A study of Mus musculus with 12 samples.

Results

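The difference between the estradiol response of mammary glands with cyclin D1 and that of glands without it was measured gene by gene. All 12 of the 12 arrays of the study enter it, taken by their titles as 4 groups of 3: Ccnd1+/+ (wildtype) mice on Vehicle, Ccnd1+/+ mice on E2, Ccnd1-/- (knockout) mice on Vehicle and Ccnd1-/- mice on E2. All were virgin, ovariectomized C57BL/6 females, so the ovarian source of estrogen was absent in every group, and each mouse carried for 7 days either a placebo pellet (the Vehicle groups) or a 0.72 mg pellet releasing estradiol over 60 days. Whole mammary gland RNA was hybridised to single-colour Affymetrix mouse arrays, 1 mouse per array, and the study describes the mice as separate animals. Ccnd1-/- is a whole-animal knockout, and the labels used here do not say which gland was taken, whether a lymph node was left in it or how old the mice were.

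Cyclin D1 binds the kinases CDK4 and CDK6, and the complex phosphorylates the retinoblastoma protein, which releases E2F factors and lets cells leave G1. It can also bind estrogen receptor alpha directly, without a kinase. In the mammary gland estradiol acts through receptor-positive luminal cells, which signal to neighbouring epithelium and stroma to grow ducts, and mice without cyclin D1 are known for poor growth of the gland in pregnancy. The question was which classes of estradiol-responsive genes respond differently when cyclin D1 is missing.

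For each of 18193 genes the response is the mean log2 intensity on estradiol minus that on placebo, and the interaction subtracts the wildtype response from that of the knockout. A negative interaction therefore means a lower response in the knockout. Values are log2 units throughout, intervals are 95% intervals of a single gene, and a gene is called where limma's adjusted p is under 0.05 over all genes. Counts at an unadjusted p under 0.05 are descriptions, to be read beside the share of all genes that reach it. That share was 4.94% for a lower response in the knockout and 1.5% for a higher one. The 3 wildtype estradiol arrays lay above the other 9 for 4.83% of all genes. In whole tissue fewer cells of a type and less RNA per cell cannot be told apart.

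Ccnd1 itself separated the genotypes. It read 9.17, 8.50 and 8.75 in wildtype placebo glands, 9.90, 10.82 and 9.35 in wildtype estradiol glands, 7.68, 7.52 and 7.48 in knockout placebo glands and 7.55, 7.44 and 7.24 in knockout estradiol glands. All 6 knockout arrays lay below all 6 wildtype arrays (exact two-sided permutation p = 0.00216). The knockout signal was above the array medians of 5.73 to 5.80, and where the probe set lies relative to the deleted part is unknown. Cell content also varied between arrays of 1 group: 5 arrays were poor in T and B cell genes (wildtype placebo 3, wildtype estradiol 1 and 3, knockout placebo 2 and knockout estradiol 1, lymphocyte scores from -2.20 to -1.98), while the other 7 had scores from 0.31 to 2.29. Skeletal muscle scores ran from -2.85 to 3.28 with no group free of overlap. RNA quality, read as the 3 prime minus 5 prime signal of the Gapdh control probe sets, also differed between genotypes. It was 3.20 to 3.56 on the knockout arrays and 2.10 to 3.26 on the wildtype arrays, lowest on wildtype placebo 3. Its part in the results below was not tested.

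The labelled tissue was checked against its defining genes. Adipoq, made by the fat cells that fill most of the gland, read 13.49 to 13.81 on all 12 arrays. Krt18, a keratin that defines luminal epithelium, read 7.86, 7.36 and 8.42 in wildtype placebo glands, 9.05, 11.22 and 9.98 in wildtype estradiol glands, 4.61, 4.80 and 7.80 in knockout placebo glands and 6.54, 4.50 and 6.44 in knockout estradiol glands. Luminal keratin was thus already low in most knockout glands on placebo, with knockout placebo 3 reaching the wildtype range. Its partner Krt8 read 8.44 to 9.21 and 11.10 to 12.96 in the wildtype groups, and 5.32 to 9.20 and 5.65 to 8.79 in the knockout groups. Every comparison of responses below is therefore between glands that also differed in luminal epithelial transcripts before estradiol.

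Across the genome only 2 genes were called for the interaction, both lower in the knockout: Padi4 and Anln. They are 0.011% of the genes tested. At an adjusted p under 0.10 there were 4, Prom2 and Actg2 joining them. No gene was called in the other direction, where 272 genes (1.5%) had an unadjusted p under 0.05, against 898 genes (4.94%) with a lower response in the knockout.

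Promoter sequences of the called genes are shown because the factors through which estradiol and cyclin D1 act read short letters in such windows. The windows run from 250 bases before to 50 after a RefSeq transcript start on GRCm38.p6, 5′ to 3′ on the gene's strand. Padi4 lies at chr4:140774154-140774453 (minus strand) and Anln at chr9:22389157-22389456 (minus strand). Beside them stand Mmd2 (chr5:142608703-142609002, minus strand) and Gas6 (chr8:13494486-13494785, minus strand), which with Fgl1 had the smallest p in the contrast that asks whether the knockout response exceeds 0.5 of the wildtype response. Capitals mark either arm of an estrogen response element, GGTCA or its reverse complement TGACC, and the cell cycle homology letters TTTGAA or TTCAAA.
Padi4: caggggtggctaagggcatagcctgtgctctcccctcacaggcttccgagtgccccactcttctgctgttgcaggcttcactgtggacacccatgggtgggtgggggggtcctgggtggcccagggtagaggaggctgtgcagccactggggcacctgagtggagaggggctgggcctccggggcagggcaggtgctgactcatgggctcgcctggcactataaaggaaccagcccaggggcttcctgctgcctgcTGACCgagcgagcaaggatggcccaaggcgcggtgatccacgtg
Anln: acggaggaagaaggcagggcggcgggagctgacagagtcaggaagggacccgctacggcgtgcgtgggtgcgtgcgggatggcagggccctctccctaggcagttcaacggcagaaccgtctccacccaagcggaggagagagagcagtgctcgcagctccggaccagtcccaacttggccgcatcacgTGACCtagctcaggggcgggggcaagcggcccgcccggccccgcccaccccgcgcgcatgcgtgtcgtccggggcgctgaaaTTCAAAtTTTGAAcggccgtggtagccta
Mmd2: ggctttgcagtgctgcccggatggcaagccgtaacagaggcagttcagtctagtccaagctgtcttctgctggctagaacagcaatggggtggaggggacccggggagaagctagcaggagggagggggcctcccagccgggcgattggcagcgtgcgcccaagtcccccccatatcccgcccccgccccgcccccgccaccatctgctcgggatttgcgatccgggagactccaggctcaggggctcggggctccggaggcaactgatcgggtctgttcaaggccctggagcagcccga
Gas6: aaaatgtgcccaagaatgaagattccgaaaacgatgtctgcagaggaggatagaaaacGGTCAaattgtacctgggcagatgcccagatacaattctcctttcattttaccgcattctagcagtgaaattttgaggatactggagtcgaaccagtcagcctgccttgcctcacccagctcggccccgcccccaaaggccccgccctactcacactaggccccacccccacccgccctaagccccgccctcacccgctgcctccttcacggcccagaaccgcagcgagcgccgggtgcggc

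Padi4, Anln and Gas6 each held 1 such arm, letters found in 40.5% of the 32544 distinct windows of the table. Anln held the cell cycle homology letters at 2 places just after its start, and 17.8% of windows hold them at least once. Neither the E2F letters TTTGGCGC or TTTCGCGC (0.82% of windows) nor facing arms with 3 bases between them (GGTCANNNTGACC, 0.0707% of windows) were in these 4 windows, and Mmd2 held none of the letters searched. Both strands were searched. A match is a description of the letters and not a binding site.

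Padi4 encodes a peptidylarginine deiminase, an enzyme that converts arginine residues of proteins, histones among them, to citrulline. It read 4.34, 4.29 and 4.13 in wildtype placebo glands and 6.69, 6.70 and 6.09 in wildtype estradiol glands. In the knockout it read 4.56, 4.70 and 4.59 on placebo and 4.85, 4.63 and 4.66 on estradiol. The wildtype estradiol arrays stood more than 1 unit above the other 9, which lay together near the dim end of the scale. The wildtype response was 2.24 ± 0.16 (SE) and the knockout response 0.10 ± 0.16, an interaction of -2.14 (interval -2.64 to -1.64, adjusted p = 0.0378).

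Anln encodes anillin, the scaffold that joins actin and septins in the cleavage furrow of dividing cells. Its values were 6.31, 6.24 and 6.41 in wildtype placebo glands, 7.41, 7.67 and 7.29 in wildtype estradiol glands, 6.68, 6.61 and 7.03 in knockout placebo glands and 6.18, 5.93 and 5.74 in knockout estradiol glands. The groups moved apart in both directions: no wildtype estradiol array overlapped wildtype placebo, and every knockout estradiol array lay below every knockout placebo array. Anln rose by 1.13 in the wildtype (adjusted p = 0.00611), and the knockout response was -0.82 (adjusted p = 0.129). The interaction was -1.96 (interval -2.45 to -1.47, adjusted p = 0.0378).

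**Figure D1:**
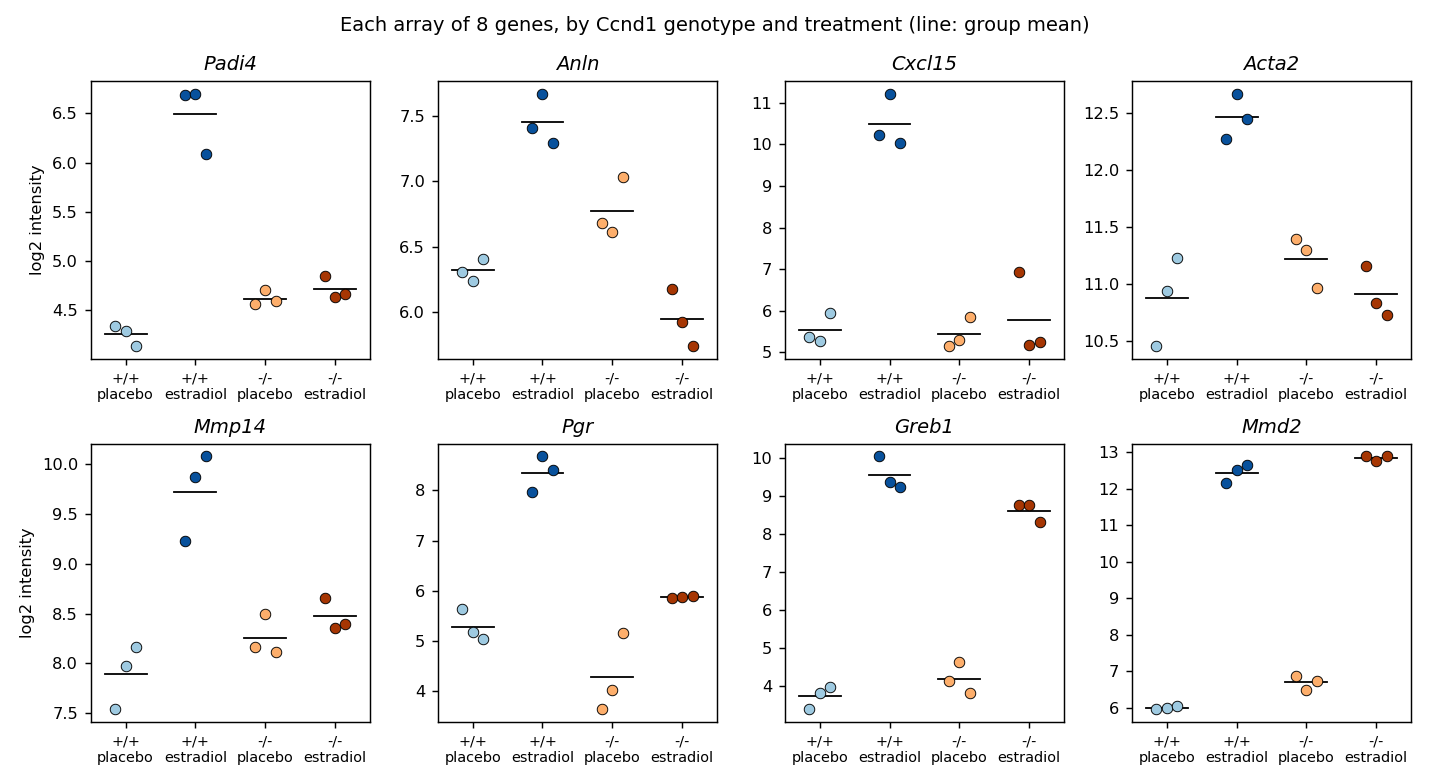
Log2 intensity (vertical axes, own scale for each gene and not starting at 0) of 8 genes on each array; points are arrays, lines group means, and the 4 groups of 3 are Ccnd1+/+ or Ccnd1-/- on placebo or estradiol. Padi4, Cxcl15, Acta2 and Mmp14 are highest on the 3 wildtype estradiol arrays, Pgr and Greb1 are higher on estradiol in both genotypes, and Mmd2 reads 12.15 to 12.89 on all 6 estradiol arrays.

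Both calls depended on which arrays were used. Leaving out 1 array at a time kept the interaction of Padi4 between -2.34 and -2.04 and that of Anln between -2.07 and -1.83, but the adjusted p ranged from 0.00192 to 0.212 for Padi4 and from 0.0301 to 0.212 for Anln. Both stayed called without wildtype placebo 3, wildtype estradiol 1 or knockout estradiol 1, Padi4 also without wildtype estradiol 3, and neither in the other 8 cases. With the luminal score as a covariate the interactions were -2.09 and -1.57 (adjusted p = 0.633 for both). The luminal score itself had an interaction of -1.62, so it overlaps with the difference being tested. A call lost in that fit says nothing about luminal content, and this limit holds for every luminal covariate value below. With the muscle score the interactions of Padi4 and Anln were -2.19 and -1.93 (adjusted p = 0.0815 and 0.132). With the lymphocyte score they were -2.15 and -1.97 (adjusted p = 0.015 for both).

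The families of the called genes were then read. Of the 5 peptidylarginine deiminases, 3 had a lower response in the knockout at an unadjusted p under 0.05, beside 4.94% of all genes. They were Padi4, Padi3 (-1.09) and Padi2 (-1.48, interval -2.91 to -0.04). Padi3 read 5.23, 6.03 and 5.44 on the wildtype estradiol arrays and 4.38 to 4.96 on the other 9. Its wildtype estradiol arrays thus stood above the rest, which holds for 4.83% of all genes, while its other groups overlapped. Padi2 overlapped between groups. Of 20 cytokinesis genes only Anln was called, Septin9, a filament partner of anillin, was the other one at an unadjusted p under 0.05 (-0.59), and the median was -0.84 beside 0 over all genes. Without knockout placebo 2 that median was -1.47, and without wildtype placebo 3 it was -0.43.

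To find classes of response, genes were first chosen by the average of both estradiol responses, a contrast orthogonal to the interaction in this balanced design, so that the choice favours neither sign. It called 287 genes (1.58% of all), of which 261 were higher (1.43%) and 26 lower under estradiol. Among the 287, the response was smaller in the knockout in 229 (79.8%) and larger in 58, while over all genes 49.9% of interactions were below 0. The 261 genes that rose had a median response of 1.41 in the wildtype and 0.69 in the knockout, and a median interaction of -0.73. The 26 that fell had medians of -0.64 and -0.71 and a median interaction of 0. Leaving out 1 array moved the number of responders between 127 (without knockout placebo 1) and 1400 (without wildtype placebo 3), while the number of the 287 genes with a smaller response in the knockout lay between 219 and 237.

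At an unadjusted p under 0.05 the interaction made 108 of these 287 responses smaller and 6 larger in the knockout, and 173 were neither. A separate contrast asked whether the knockout response exceeded 0.5 of the wildtype response. It did so with a call for 1 gene, Mmd2, and at an unadjusted p under 0.05 for 58, while 33 fell below 0.5 at that p. The choice by the average response is not orthogonal to this contrast and favours an excess over 0.5. The 58 and the 33 therefore cannot be weighed against each other. The 107 risers with a smaller knockout response had a median of 1.70 in the wildtype and 0.36 in the knockout. Being chosen for a negative interaction sets a lower response in the knockout, so these 2 medians are a description only. For most single genes the interval of the interaction was wide, reaching a median of 0.73 to either side among the risers, so a gene in neither class is undecided and not shown to respond alike.

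**Figure D2:**
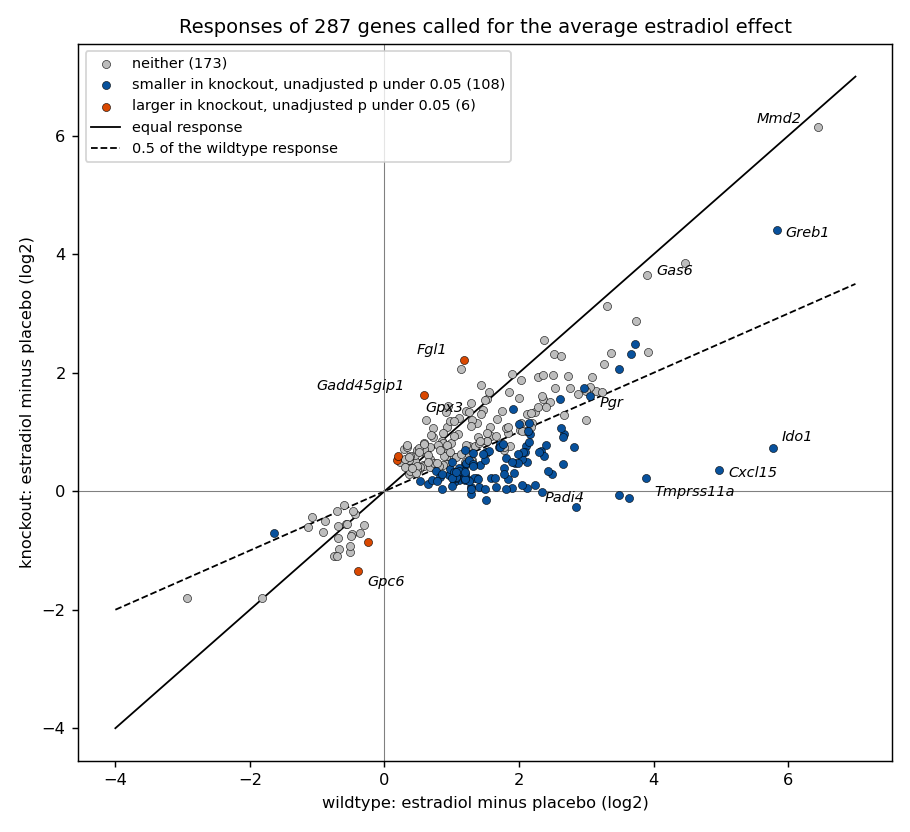
Estradiol minus placebo (log2) in the knockout (vertical axis) against the wildtype (horizontal axis) for the 287 genes called for the average estradiol effect; each point is a gene, coloured by whether its interaction had an unadjusted p under 0.05. Of the 108 genes with a smaller knockout response, the 107 risers lie below the line of equal response, as their choice sets. Many of them are near 0 on the knockout axis, and Mmd2 and Gas6 lie near the line of equal response.

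Genotype differences were called in the estradiol arm and not in the placebo arm. Knockout and wildtype differed under estradiol in 204 genes, 198 of them lower in the knockout (1.09% of all). Under placebo limma called 0 genes, with 370 at an unadjusted p under 0.05, where 910 would be expected with no difference. Ccnd1, the deleted gene, was itself not called under placebo (-1.25 ± 0.31 SE). The lack of calls therefore does not show that the genotypes were alike on placebo. The 107 risers with a smaller knockout response had a median knockout minus wildtype difference of -0.97 under estradiol and 0.13 under placebo. They were chosen for a negative interaction, which is the estradiol difference minus the placebo difference. A lower value under estradiol is therefore set by the choice and is a description only. The 2 arms share no arrays.

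The 6 most negative interactions among the 287 responders began with Ido1 and Cxcl15. Ido1, which encodes an enzyme that breaks down tryptophan, read 9.89, 11.98 and 10.50 on the wildtype estradiol arrays, 7.03, 4.50 and 5.24 on the knockout estradiol arrays and 4.40 to 5.37 on placebo. Knockout estradiol 1 stood above the other 2 knockout estradiol arrays, which lay within the placebo range. The interaction was -5.04 (interval -7.06 to -3.01, adjusted p = 0.194).

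Cxcl15, a chemokine made by epithelia, read 10.22, 11.22 and 10.04 on the wildtype estradiol arrays, and 6.94, 5.17 and 5.24 on the knockout estradiol arrays. The same knockout array, estradiol 1, was the highest of its group, and placebo arrays of both genotypes read 5.14 to 5.95. The interaction was -4.61 (interval -6.11 to -3.12, adjusted p = 0.126), with no overlap between wildtype estradiol and the other 9 arrays.

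The transporter gene Slc5a8 (-3.75), the transmembrane protease gene Tmprss11a (-3.64), Pate6 (-3.54) and Cthrc1 (-3.11), which encodes a secreted protein of collagen-rich matrix, followed. Slc5a8, Tmprss11a and Pate6 were in the dimmest 25% of all 3 knockout estradiol arrays, and Tmprss11a and Pate6 also on all placebo arrays, so their low levels are only upper bounds. None of these 4 interactions was called.

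Luminal epithelial genes had the most negative median interaction of the 42 lists. All 24 measured members, of 25 listed, had a negative interaction, 9 of them at an unadjusted p under 0.05 (4.94% of all genes) and none the other way, and none was called. The median interaction was -1.61, from a median response of 1.34 in the wildtype and -0.07 in the knockout. Under estradiol 8 of the 24 were called lower in the knockout. On 15 of the 24 the 3 wildtype estradiol arrays lay above the other 9, which holds for 4.83% of all genes.

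Cldn7, a tight junction claudin, read 7.75, 10.07 and 8.95 on the wildtype estradiol arrays and 5.32, 4.50 and 5.11 on the knockout ones. On placebo it read 6.36, 5.75 and 6.72 in the wildtype and 4.53, 4.38 and 6.24 in the knockout. The genotypes thus already stood apart on placebo except for knockout placebo 3. Its interaction was -2.72 (interval -4.65 to -0.79, adjusted p = 0.544).

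Cldn4, a claudin of the same junctions (-1.79), the secreted whey acidic family gene Wfdc18 (-3.10) and the stem and luminal cell surface gene Prom1 (-2.04) were likewise highest on the wildtype estradiol arrays. The luminal score, the mean of the list after centring each gene, was 0.79, 2.38 and 1.38 on the wildtype estradiol arrays and -1.19 to -0.68 on the knockout estradiol arrays. Placebo arrays read -0.16 to 0.29 in the wildtype and -1.08 to -0.03 in the knockout. Wildtype estradiol 2 was the highest array, and without it the list's median interaction was -1.13. With this score as a covariate the interaction of Cldn7 was -0.22 and that of Ido1 -3.10. Cldn7 is itself a member of the score and Ido1 is not, so the smaller value of Cldn7 is partly built in. The 2 values cannot be compared.

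Of 12 estrogen receptor cofactors 1, Tfap2c, had an unadjusted p under 0.05, beside 4.94% of all genes. The median interaction of the cofactors was -0.15 (-0.28 without knockout placebo 2). Tfap2c, which encodes the AP-2 gamma factor that opens chromatin for the estrogen receptor, read 7.65, 9.68 and 8.57 on the wildtype estradiol arrays and 5.12, 4.88 and 5.49 on the knockout ones, with placebo arrays from 4.86 to 6.24. The wildtype estradiol arrays alone stood high, and the interaction was -2.93 (interval -4.47 to -1.38, adjusted p = 0.299). Erbb3, the kinase-poor receptor that pairs with ERBB2, had an interaction of -1.97 on its brightest probe set and 0.30 on a dimmer one. Stc2, a secreted glycoprotein induced by estrogen in breast cancer cells, had -1.02.

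Keratins, the intermediate filaments of epithelium, had a lower knockout response in 14 of 16 members, 9 at an unadjusted p under 0.05, with a median of -1.11. Krt7, of simple epithelium, read 8.14, 10.20 and 8.95 on the wildtype estradiol arrays and 5.39 to 7.35 on the other 9. Krt6a, of stressed and ductal progenitor epithelium, had an interaction of -1.72 and Krt4 of -1.34, each with the wildtype estradiol arrays above all others. Milk protein and milk fat genes differed from these: their median interaction was -0.33 (-0.13 without wildtype placebo 1), and the median responses were 0.03 and -0.03. Of these 16, 3 had an unadjusted p under 0.05, beside 4.94% of all genes: Cel (-1.84), Lalba (-0.84) and Folr1 (-0.39).

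Basal and myoepithelial genes had 15 of 22 members at an unadjusted p under 0.05 for the interaction, all lower in the knockout, and none called. Their median interaction was -0.91, from 0.89 in the wildtype and -0.13 in the knockout. Wildtype estradiol arrays stood above the other 9 for 13 of the 22. On placebo the median knockout minus wildtype difference over the list was 0.03. Single members could still differ on placebo, as Actg2 did.

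Actg2, the smooth muscle gamma actin, read 7.80, 7.81 and 7.81 on the wildtype estradiol arrays and 6.65, 5.75 and 5.66 on the knockout estradiol arrays. On placebo it read 5.62, 6.02 and 6.08 in the wildtype and 6.52, 6.53 and 6.49 in the knockout. The wildtype estradiol arrays were the highest by more than 1 unit, and the interaction was -2.40 (interval -3.12 to -1.68, adjusted p = 0.0981).

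Acta2, the smooth muscle alpha actin of myoepithelial cells and vessel walls, read 12.27, 12.67 and 12.45 on the wildtype estradiol arrays and 10.45 to 11.39 on the other 9. Its interaction was -1.90 (interval -2.57 to -1.24). Cnn1, the actin-binding calponin of contractile cells, had -2.37 and the membrane glycoprotein gene Pdpn -1.56, both with separate wildtype estradiol arrays. Of 16 endothelial and pericyte genes, most of them endothelial, 2 had an unadjusted p under 0.05, beside 4.94% of all genes. These 2 were Vwf (-1.28) and the lymphatic receptor Flt4 (-0.49). The median of the endothelial and pericyte list was -0.19, which was -0.48 without wildtype placebo 3 and 0 without wildtype placebo 1. With the luminal score as a covariate the interaction of Acta2 was -1.77 and that of Actg2 -2.30. An exception within the list was Oxtr, the oxytocin receptor gene, chosen after its values were seen: its response was 4.46 in the wildtype and 3.85 in the knockout.

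**Figure D3:**
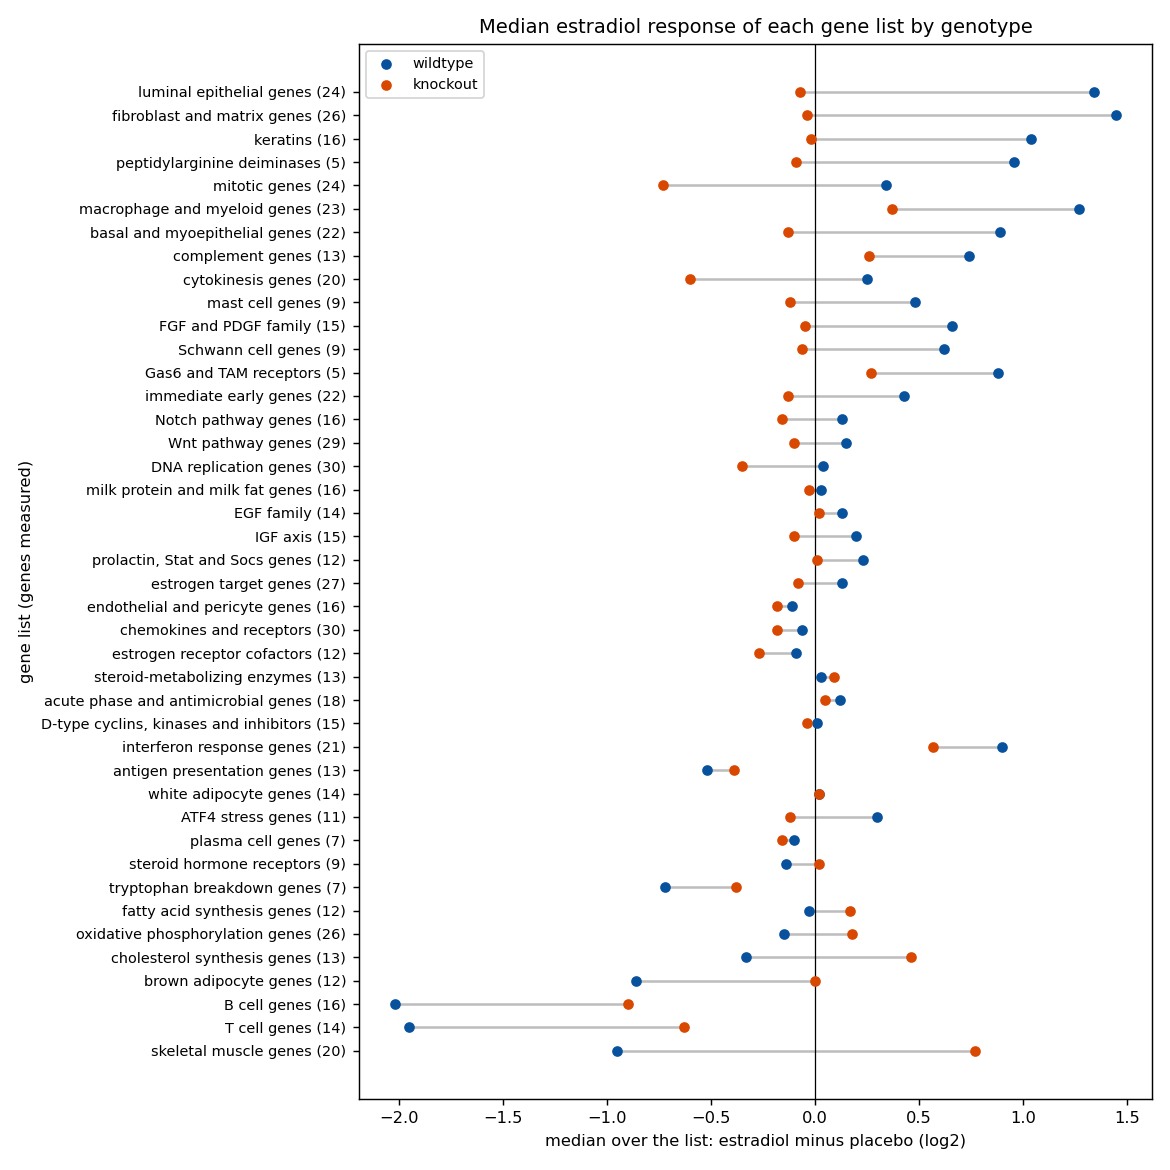
Median estradiol minus placebo response (log2, horizontal axis) of each of 42 gene lists in the wildtype and in the knockout, ordered by the list's median interaction, with the number of measured genes in brackets. Luminal, matrix, keratin and basal lists sit between 0.89 and 1.45 in the wildtype and between -0.13 and -0.02 in the knockout, while T cell, B cell and muscle lists lie on the other side.

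Stromal genes had high levels on the wildtype estradiol arrays too. All 26 measured fibroblast and matrix genes, of 28 listed, had a negative interaction, 15 at an unadjusted p under 0.05, with a median of -1.27. The median response was 1.45 in the wildtype and -0.04 in the knockout. Wildtype estradiol arrays lay above the other 9 for 13 of the 26, and 1 of the 26 was called lower in the knockout under estradiol.

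Mmp14, the membrane-bound protease that cuts collagen at the front of growing ducts, read 9.23, 9.87 and 10.08 on the wildtype estradiol arrays and 8.66, 8.36 and 8.40 on the knockout ones, with placebo arrays from 7.54 to 8.50. The wildtype estradiol arrays stood apart, and the knockout response of 0.21 was not called. Its interaction was -1.62 (interval -2.35 to -0.89, adjusted p = 0.194).

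Spon1, which encodes a secreted matrix protein, kept part of its response: 12.05, 11.95 and 12.17 on the wildtype estradiol arrays, 10.92, 11.39 and 10.96 on the knockout ones and 7.77 to 9.24 on placebo. All estradiol arrays of both genotypes exceeded all placebo arrays. It rose by 3.67 in the wildtype (adjusted p = 0.000579) and by 2.32 in the knockout (adjusted p = 0.026), with an interaction of -1.35 (interval -2.31 to -0.39). Pdgfra, the platelet-derived growth factor receptor of fibroblasts, had an interaction of -0.99 and Pdgfrb, that of mural cells, -0.97. Among 15 FGF and PDGF family genes, which include both, 3 had an unadjusted p under 0.05, the ligand gene Pdgfa (-0.65) being the third.

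Macrophage and myeloid genes had a median interaction of -0.97, with 23 of 23 below 0. Of these, 3 had an unadjusted p under 0.05, beside 4.94% of all genes. They were Cd14, the endotoxin coreceptor (-1.25), C1qb, a subunit of complement C1q (-1.24), and Csf1r, the receptor for CSF1 (-0.78). Wildtype estradiol 1 weighed on this list, with a macrophage score of 1.45 against 0.22 and 0.44 on the other 2 wildtype estradiol arrays and -0.52 to 0.16 elsewhere, and without it the median was -0.56. Among mast cell genes, whose median interaction was -0.82, 3 of 9 were at an unadjusted p under 0.05 and none was called. The syndecan gene Sdc1, listed with plasma cells but known from epithelium too, read 10.48, 10.75 and 10.88 on the wildtype estradiol arrays and 9.57 and 9.07 on knockout estradiol 2 and 3, with the remaining knockout array between these and the wildtype, and with placebo arrays from 7.73 to 8.70. Its interaction was -1.57.

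Of 9 Schwann cell genes 8 had a negative interaction, with a median of -0.59 (-0.97 without knockout estradiol 1 and -0.18 without wildtype placebo 1). Among them 2, Sox10 and Ngfr, had an unadjusted p under 0.05, beside 4.94% of all genes. Sox10, a factor of Schwann cells and of mammary progenitors, read 8.68, 9.52 and 8.83 on the wildtype estradiol arrays and 6.61, 6.80 and 7.04 on the knockout ones, within the range of their placebo arrays, 6.89 to 7.40, or below it. Its interaction was -1.94. Ngfr, a receptor of neurotrophins, read 10.21, 9.30 and 10.19 against 8.94, 8.36 and 8.08, with placebo arrays from 5.73 to 6.72. It rose in both genotypes, by 3.72 (adjusted p = 0.000791) and by 2.48 (adjusted p = 0.026), and its interaction was -1.23.

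Among signalling lists, counts at an unadjusted p under 0.05 stand beside 4.94% of all genes. Of 29 Wnt pathway genes 5 had a lower knockout response at an unadjusted p under 0.05, among them the secreted inhibitors Wif1 (-2.68) and Dkk3 (-1.38) and the ligands Wnt5a (-1.96) and Wnt5b (-1.85). Wif1 read 5.69, 6.05 and 5.49 on the wildtype estradiol arrays and 2.70 to 4.46 on the others, where most arrays were in their dimmest 25%. Of 14 EGF family genes 3 did, Erbb3, the ligand gene Epgn (-1.98) and Nrg1 (-0.45), the latter in the dimmest 25% of all 12 arrays. Of 16 Notch genes 3 did, Rbpj, the DNA-binding partner of Notch (-0.81), Jag1 (-0.69) and Dll1 (-0.61). In the IGF axis it was Igfbp2 alone of 15 (-0.88), a share near that of all genes. The median interaction of the Wnt list was -0.44 (-0.73 without knockout estradiol 1 and -0.23 without wildtype placebo 1), and that of the EGF family was -0.33. The Notch median was -0.47 (-0.30 without knockout placebo 1) and the IGF median -0.29 (-0.52 without wildtype placebo 3 and -0.12 without knockout placebo 2).

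Cell division genes had negative interactions with almost no support from single genes. Of 24 mitotic genes all 24 were below 0, the median was -1.01 (0.34 in the wildtype and -0.73 in the knockout), and 1, the mitotic kinase gene Pbk, had an unadjusted p under 0.05. All 30 DNA replication genes were below 0 with a median of -0.38 (-0.91 without knockout placebo 2 and -0.14 without wildtype placebo 3) and none at that p. Pbk read 7.05, 6.65 and 5.38 in wildtype placebo glands, 7.39, 8.01 and 7.49 in wildtype estradiol glands, 7.50, 5.95 and 7.58 in knockout placebo glands and 5.78, 6.62 and 5.84 in knockout estradiol glands. Knockout placebo arrays spanned much of the range of the gene, and the interaction was -2.20 (interval -3.81 to -0.60).

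The spread within these groups moved with lymphocyte genes. The array with the lowest mitotic score was also the one with the lowest lymphocyte score in 3 of the 4 groups: wildtype placebo 3 (-1.30 mitotic, -1.98 lymphocyte), knockout placebo 2 (-0.86 and -1.99) and knockout estradiol 1 (-0.91 and -2.20). Leaving out knockout placebo 2 took the median of the mitotic list to -1.67, and leaving out wildtype placebo 3 took it to -0.43. With the lymphocyte score as a covariate the median was -1.40, and 65 genes were called, 61 of them lower in the knockout. Of the 65, 41 had an unadjusted p under 0.05 without the covariate.

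Those 65 genes included 7 of the 24 mitotic genes (Pbk, Cdc20, Melk, Cdk1, Nek2, Bub1 and Ccnb2), 4 of the 20 cytokinesis genes (Anln, Cep55, Cdca8 and Prc1) and 2 of the 30 replication genes (Rrm2 and Mcm10). Rrm2, a subunit of the reductase that makes deoxynucleotides, went from -1.84 without the covariate to -2.50 with it (adjusted p = 0.00101). Cdc20, an activator of the anaphase-promoting complex, went from -1.75 to -2.33 and Cdk1, the mitotic kinase, from -1.65 to -2.03. These genes were chosen after their values were seen, and the calls belong to the covariate fit alone. Leaving out both lymphocyte-poor placebo arrays, a choice made after seeing the data, called 3 genes and left Padi4 and Anln at adjusted p = 0.0735 and 0.0667. What part lymphocyte content has in the mitotic result was not tested further.

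**Figure D4:**
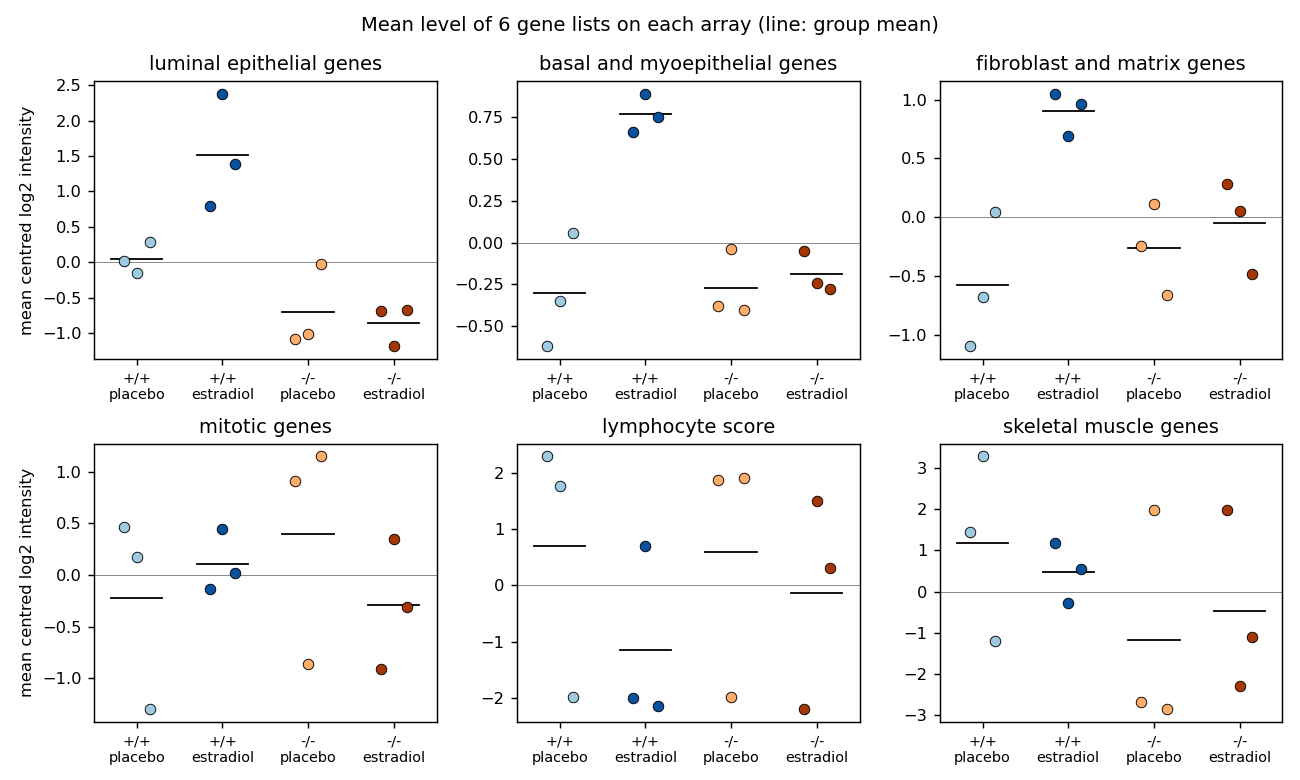
Mean centred log2 level (vertical axes) of 5 gene lists and of the lymphocyte score, averaged from the scores of T and of B cell genes, on each array; points are arrays, lines group means. The luminal, basal and matrix scores are highest on the 3 wildtype estradiol arrays, whereas mitotic, lymphocyte and muscle scores spread within every group.

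Of 15 D-type cyclins, kinases and inhibitors, 2 had a lower knockout response at an unadjusted p under 0.05, beside 4.94% of all genes. They were Ccnd1 itself (-1.37) and its kinase partner Cdk4 (-0.58). Ccnd1 is the gene removed in the knockout, so its interaction is no result about the list. Cdk4 read 10.35, 10.37 and 10.44 on the wildtype estradiol arrays and 9.42 to 10.09 on the other 9. The other D-type cyclins had interactions of -0.10 (Ccnd2, interval -0.96 to 0.76) and 0.02 (Ccnd3, interval -0.43 to 0.47). The receptor genes Esr1 (-0.06, interval -1.29 to 1.17) and Esr2 (0.04, interval -0.42 to 0.50) likewise gave no call, and the sign of these 4 values depends on the array left out.

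The 27 measured estrogen target genes had a median interaction of -0.20, which was -0.80 without knockout placebo 2 and -0.65 with the lymphocyte covariate. Of the 27, 18 were below 0 and 4 at an unadjusted p under 0.05 (4.94% of all genes): Greb1, Pgr, Tfap2c and Stc2. Greb1, an estrogen-induced cofactor of the receptor, read 10.05, 9.38 and 9.25 in wildtype and 8.76, 8.77 and 8.32 in knockout estradiol glands, against 3.40, 3.82 and 3.98 and 4.14, 4.64 and 3.82 on placebo. Estradiol arrays of both genotypes stood far above placebo, the wildtype ones highest. Its interaction was -1.41 (interval -2.26 to -0.56), and the knockout response exceeded 0.5 of the wildtype response by 1.50 at an unadjusted p of 0.000541 (adjusted p = 0.608). All 3 wildtype placebo arrays and 2 knockout ones read Greb1 in their dimmest 25%, so both responses may be understated.

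Pgr, the progesterone receptor gene, read 7.97, 8.68 and 8.40 on the wildtype estradiol arrays and 5.86, 5.88 and 5.90 on the knockout ones. On placebo it read 5.64, 5.18 and 5.04 in the wildtype and 3.64, 4.03 and 5.15 in the knockout, so knockout glands on estradiol reached little more than the wildtype level on placebo. Its interaction was -1.45 (interval -2.52 to -0.38, adjusted p = 0.58). With the luminal score as a covariate it was -0.45, while that of Greb1 was -2.03.

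Mmd2 was the gene with a called retained response. This gene, of a family of membrane proteins, read 12.15, 12.51 and 12.65 in wildtype and 12.89, 12.75 and 12.89 in knockout estradiol glands, against 5.96, 6.00 and 6.04 and 6.88, 6.47 and 6.73 on placebo. The knockout arrays were the higher ones under both treatments, and no estradiol array came near a placebo array. It rose by 6.44 in the wildtype (adjusted p = 1.01e-08) and by 6.15 in the knockout (adjusted p = 1.61e-08). The interaction was -0.29 (interval -0.74 to 0.16), and the excess over 0.5 of the wildtype response was 2.93 (adjusted p = 8.27e-05). On its dimmer probe sets the interaction was 0.15 and 0.55, so the knockout response was not the smaller one on every probe set.

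Gas6, the ligand of the TAM receptor kinases, read 11.79, 11.91 and 12.12 in wildtype and 11.43, 12.01 and 11.92 in knockout estradiol glands, with placebo arrays from 7.65 to 8.44. The estradiol arrays of both genotypes overlapped. It rose by 3.90 in the wildtype and by 3.65 in the knockout (interaction -0.25, interval -0.94 to 0.44), an excess over 0.5 of the wildtype response of 1.70 (adjusted p = 0.17). Of the 5 genes in its list Gas6 alone was among the 287 responders, and Pros1, the related ligand gene, had an interaction of -0.83 (interval -1.54 to -0.12).

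Further genes with an unadjusted retained response were Gpx3, a secreted glutathione peroxidase (1.30 in the wildtype and 1.21 in the knockout, interaction interval -0.45 to 0.28), Plppr3 (1.55 and 1.68, interval -0.38 to 0.65) and Nexmif (3.31 and 3.12, interval -0.94 to 0.57). Gpx3 lay at 13.89 to 14.06 on all 6 estradiol arrays, close to the highest value of any array, 14.3, where a difference could be compressed. Nexmif was in the dimmest 25% of every placebo array.

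Of 18 measured acute phase and antimicrobial genes 11 had a negative interaction, with a median of -0.11 (-0.37 without knockout placebo 2 and 0.08 without wildtype placebo 1). At an unadjusted p under 0.05 the knockout response was lower for Slpi, a secreted protease inhibitor (-2.79, interval -4.77 to -0.81), and Lbp, which binds bacterial lipopolysaccharide (-1.46, interval -2.79 to -0.12), and higher for Fgl1. Of the 4 members among the 287 responders, 3 were retained at an unadjusted p under 0.05, as 20.2% of all 287 were. These were Fgl1, and, chosen after their values were seen, Lrg1 (2.62 in the wildtype and 2.28 in the knockout) and Hp, haptoglobin (1.21 and 1.36). With 4 genes no trait of the list can be read from this.

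Of 21 measured interferon response genes 7 were among the 287 responders, which are 1.58% of all genes. None of these 7 was retained at an unadjusted p under 0.05, as 20.2% of all 287 were. With 7 genes that difference is too small to read as a trait of the list. The list had median responses of 0.90 in the wildtype and 0.57 in the knockout and a median interaction of -0.09, which was -0.31 without knockout estradiol 1 and 0.12 without wildtype estradiol 1. Of those 7, Cxcl9, an interferon-induced chemokine, was the only one at an unadjusted p under 0.05 for the interaction (0.93, interval 0.13 to 1.73). It fell by 1.64 in the wildtype (adjusted p = 0.0112), with a knockout response of -0.71. The factor gene Irf7, chosen after its values were seen, responded by 2.03 and 1.88 (interaction interval -1.40 to 1.09), an interval too wide to place the knockout response.

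Some responses were larger in the knockout, with no call. Fgl1, a secreted fibrinogen-like protein, read 7.31, 7.02 and 7.62 in wildtype and 8.60, 8.26 and 8.56 in knockout estradiol glands, with placebo arrays from 6.03 to 6.59. Knockout estradiol arrays exceeded the wildtype ones without overlap. It rose by 1.18 in the wildtype (adjusted p = 0.0112) and by 2.22 in the knockout (adjusted p = 0.000837), with an interaction of 1.04 (interval 0.46 to 1.61, adjusted p = 0.34).

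Gadd45gip1, which encodes a protein of the mitochondrial ribosome, read 6.96, 7.69 and 7.41 in wildtype and 8.33, 8.01 and 8.23 in knockout estradiol glands, against 6.61, 6.67 and 7.00 and 6.37, 6.72 and 6.62 on placebo. The knockout estradiol arrays were again the highest. It rose by 1.62 in the knockout (adjusted p = 0.0124), the wildtype response was 0.59, and the interaction was 1.03 on this probe set and -0.28 on a dimmer one. Gpc6, a glypican that fell by 1.35 in the knockout (adjusted p = 0.0489) and had a wildtype response of -0.39, had an interaction of -0.96 and 0.02 on another probe set.

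Among genes that were not called for the average effect, the positive interaction with the smallest p was that of Nt5dc1. Nt5dc1, a nucleotidase-like gene, read 8.84 to 8.99 on wildtype and 9.40 to 9.61 on knockout estradiol arrays, with placebo arrays from 9.11 to 9.35. The 2 genotypes lay on opposite sides of the placebo range, with an interaction of 0.68 (interval 0.37 to 0.99, adjusted p = 0.194). Sycp3, a meiotic chromosome axis gene, gave 2.56 (interval 1.05 to 4.07). Its wildtype placebo 3 (8.90) and knockout placebo 2 (8.77), both poor in lymphocyte genes, stood above the other placebo arrays (7.18 to 7.62), and with the lymphocyte covariate its interaction was 2.88 (adjusted p = 0.015). Trmt10c, a mitochondrial tRNA methyltransferase gene, gave 0.97 and -0.23 on a dimmer probe set.

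Opposite responses, each at an unadjusted p under 0.05, were found in 28 of the 18193 genes. Of the 28, 25 were higher in the wildtype and lower in the knockout under estradiol. These genes were picked at unadjusted p values from all genes tested, and how many would be picked by chance was not worked out. They are a description and not an established class. Anln and Prom2 led them. Prom2, a pentaspan protein of epithelial membrane protrusions, read 5.81, 6.25 and 5.79 on wildtype and 4.62, 4.63 and 4.56 on knockout estradiol arrays, with placebo arrays from 4.73 to 4.98. Its 2 estradiol groups lay above and below all placebo arrays, though the knockout response of -0.30 had an adjusted p of 0.597. The interaction was -1.44 on this probe set (interval -1.86 to -1.03, adjusted p = 0.0894). On a dimmer probe set of Prom2 it was -0.09, and the 2 estradiol groups overlapped.

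Fzd6, a Wnt receptor of planar polarity, gave -2.18 on its brightest probe set and 0.05 on another. Rell1 (-1.17), a relative of the TNF receptor RELT, Itpripl2 (-1.18), Tmem86a (-1.63), a lysoplasmalogenase-like membrane protein, and Tmcc2 (-0.77) made up the others by the naming rule, together with Nt5dc1 in the opposite direction. None of these was called.

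Lists on the positive side held no called gene. T cell genes had a median interaction of 1.28, with 14 of 14 above 0, B cell genes 1.15, with 15 of 16, and skeletal muscle genes 1.73, with 17 of 20, and none of these members had an unadjusted p under 0.05. These medians rest on single arrays. The T cell median was -0.02 without knockout placebo 2 and 2.59 without wildtype placebo 3, and the muscle median was 0.23 without knockout estradiol 1 and 3.23 without knockout placebo 2. The B cell median was -0.36 without knockout placebo 2 and 2.57 without wildtype placebo 3. Brown adipocyte genes had 0.89, with -0.08 without knockout estradiol 1 and 1.59 without knockout estradiol 3.

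Cholesterol synthesis genes had a median interaction of 0.80 with 13 of 13 above 0, and oxidative phosphorylation genes 0.37 with 26 of 26, beside 49.9% of all genes below 0. Only Cyc1, a cytochrome subunit of complex III, had an unadjusted p under 0.05 (0.50). Leaving out 1 array moved the cholesterol median between 0.31 (without knockout estradiol 3) and 1.13, and the oxidative phosphorylation median between 0.23 (without knockout estradiol 1) and 0.48. In fatty acid synthesis genes, with a median of 0.36 (0.10 without wildtype placebo 3), the elongase gene Elovl6 read 11.12 to 11.25 on the wildtype estradiol arrays and 11.98 to 13.52 on the other 9. Of the 12 measured members of this list 3, Elovl6 among them, had the wildtype estradiol arrays below all others, as 214 of all genes (1.18%) had. The interaction of Elovl6 was 1.49 (interval 0.09 to 2.88). White adipocyte genes had a median interaction of -0.08 (-0.35 without wildtype placebo 3 and 0.05 without wildtype placebo 1), and none of their 14 members had an unadjusted p under 0.05.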

How the data were processed

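Each of the 12 mice gave 1 array of 45101 probe sets. The deposited table holds log2 intensities, which the authors made with RMA, and limma 2.9.16 is also named, both per the submitters' processing notes; the chip definition and genome build are not given in the sources used here. RMA summarises probes after quantile normalisation, so a change shared by most genes would be removed. Where probe sets of a gene were several, the one brightest on average over the 12 arrays stood for it: 34945 probe sets had 1 gene, 932 several, and 18193 genes resulted, 18032 matched to RefSeq.

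All comparisons come from 1 fit of 4 group means with lmFit and eBayes (limma 3.58.1, R 4.3.3; 8 residual and 2.15 prior degrees of freedom), two-sided, with Benjamini-Hochberg adjustment over all genes, tested first on simulated data. With 3 arrays a group their number limits the precision. The 42 lists (691 of 735 members measured; the others are not analysed here) are described by counts and medians, with no test of a list. Scores are list means of centred log2 values. The members and lists were chosen with earlier results of these data known. Named genes are a fixed hormone and cyclin set; the genes called; the 10 smallest p in each direction; of average-called genes the 6 most negative and 6 most positive interactions and the 10 smallest p of the retained contrast; the 8 opposite responses with the smallest p; and up to 4 members per list with unadjusted p under 0.05. Several such genes are only counted. Alternatives are given at the end. Promoters are from RefSeq (GRCm38.p6). Figures used matplotlib 3.10.9 in Python 3.11.15.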

Additional observations from a re-analysis of the deposited data

Results flagged for a closer look

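In both Padi4 and Anln the estradiol response differed between genotypes by a test of the difference itself, the interaction in limma's fit. For Padi4 the knockout response was lower than the wildtype response by the largest margin relative to its error, with a difference of -2.14 (adjusted p = 0.0378), and the wildtype estradiol arrays were above all others in 3 of 3 mice. For Anln the difference was -1.96 (adjusted p = 0.0378), and all 3 knockout estradiol arrays lay below all 3 knockout placebo arrays while the 3 wildtype estradiol arrays lay above all 3 wildtype placebo arrays. Groups of 3 arrays are too small for a check of single outlying samples.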

How the results depend on the processing

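The 2 interaction calls became 0 without the dimmest 40% of genes, with median centring, with the luminal or muscle score as a covariate and with every probe set on its own; 1 (Padi4) with quantile normalization or with eBayes using a trend and robust priors; 4 at an adjusted p under 0.10; 65 with the lymphocyte covariate and 84 with array weights, an estimate that did not fully converge, 28 genes being in both of these. Replicate numbers do not pair the mice (same-numbered arrays correlated from -0.741 to 0.66 over 18 pairs, 7 over 0.1), and with the replicate block the interaction called 0 genes, the average effect 134, of which 110 were smaller in the knockout. Leaving out 1 array gave 0 to 18 interaction calls (17 without wildtype placebo 3, 18 without wildtype estradiol 1), 127 to 1400 average calls (1400 without wildtype placebo 3), 107 to 1171 of them smaller in the knockout, and 1 to 2 retained calls. The 287 average calls were 4835 with array weights, 554 with the lymphocyte and 95 with the luminal covariate, 585 at an adjusted p under 0.10 and 3913 without both lymphocyte-poor placebo arrays, the last chosen after seeing the data. Of these, 3393, 412, 87, 441 and 2688 were smaller in the knockout, and over all settings that share stayed between 68.7% and 91.6%. Retained calls were 3 with array weights and 2 with the lymphocyte covariate or at an adjusted p under 0.10. Causes were not tested.

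Of 2604 pairs of a named gene and an alternative, 2490 kept direction and side of the threshold, 52 gained and 32 lost the call, and 30 reversed, in 7 genes. Ccnd2 was 0.11 with the mean of all probe sets, 0.03 with median centring, 0.01 with the luminal covariate and -0.34 to 0.14 leaving out 1 array. Ccnd3 was -0.13 with array weights, -0.12 with the luminal covariate, -0.14 without both lymphocyte-poor placebo arrays and -0.13 to 0.10 leaving out 1 array. Esr1 was 0.01 with the mean of all probe sets, 0.07 with median centring, 0.05 with array weights, 0.12 with the lymphocyte covariate and -0.40 to 0.33 leaving out 1 array. Esr2 was -0.06 with the luminal covariate, -0.02 without both lymphocyte-poor placebo arrays and -0.09 to 0.19 leaving out 1 array. Mmd2 was 0.14 with the mean of all probe sets, Gpx3 0.05 with median centring, and Nexmif -0.44 to 0.02 leaving out 1 array. Median centring moved the median interaction of all genes to 0.135. Signals in the dimmest 25% of an array limit the low end of Greb1, Pgr, Tmprss11a, Pate6, Slc5a8, Ano4, Agtr2, Serpinb11, Cel and Nexmif.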
